A study of Mus musculus with 5 samples.

Results

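The 10 genes described here encode the subunits of the interleukin-12 (IL-12) family (Il12a, Il12b, Il23a, Il27 and Ebi3), a receptor chain of that family (Il12rb1), IL-15 with its presenting receptor (Il15 and Il15ra), and the cytokines IL-6 and IL-10 (Il6 and Il10). They were chosen by gene symbol, as cytokines with which macrophages instruct lymphocytes and some of their receptor chains. The choice was made with earlier results of these data known. Each gene matched 1 row among the 24982 rows of the authors' deposited table. RNA was sequenced from macrophages of mouse tumors grown from 9609 cells, a fibrosarcoma labelled MCA. The MEK1-hi group has 3 libraries, from tumors with the genotype label MEK1-hi and the treatment MEK1-hi exosomes, which are small vesicles shed by cells. The MEK1-low group has 2 libraries, with the genotype label MEK1-low and the treatment MEK1-low (GFP) exosomes. The labels give no strain, age, sex or time, do not say how macrophages were isolated, and do not say whether a library came from 1 animal or from several. The title names rejecting and growing tumors without tying either to a group. All directions below are MEK1-hi relative to MEK1-low.

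The IL-12 family consists of heterodimers that share chains. IL-12 joins the products of Il12a and Il12b, IL-23 those of Il23a and Il12b, IL-27 those of Il27 and Ebi3, and IL-35 those of Il12a and Ebi3. IL-12 drives interferon-gamma production and cytotoxicity in NK and T cells, while IL-15, held on the surface of the producing cell by IL-15 receptor alpha, sustains the same lymphocytes. IL-6 and IL-10 both act through STAT3, but IL-6 is an inflammatory signal, and IL-10 is the main cytokine that restrains inflammatory gene expression in macrophages.

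The table gives 1 FPKM value per group (fragments scaled to transcript length and to library size, a level per length that can be set side by side between genes). Because each value is the authors' pooled estimate, no SD can be given. The table does not show how deeply each library was sequenced. According to the labels, about 25000000 reads per sample were aimed for. Error is expressed by the Cuffdiff test alone, through its statistic, its unadjusted p and its q, which is p adjusted over all 12311 tested rows. These rest on Cuffdiff's own estimate of error. Without values per library, the spread of a given gene between libraries cannot be read from them. The labels do not say that libraries were separate animals. A gene was called at a q of 0.05 or less.

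Il12rb1 was the single member of the set called by Cuffdiff, and it was higher in MEK1-hi. Of the 10 members 9 were tested, and Il12a was too low to be tested. The count called was 1 of 9, all higher, beside 1.32% of all tested rows called in either direction, 0.999% called higher and 0.325% called lower. At an unadjusted p under 0.05, 4 of 9 members were higher (Il12rb1, Il15ra, Il12b and Il6) and 0 lower, beside 6.08% of all tested rows at that threshold, 3.5% higher and 2.58% lower. All 9 tested members had a higher FPKM in MEK1-hi, against 46.2% of the tested rows. The median log2 fold change was 0.95 over the 9 members and -0.02 over all tested rows with a finite fold change. Of the 9, 4 had an FPKM at least doubled (a log2 fold change of 1 or more), as had 1.99% of all tested rows. Because the members were chosen with earlier results of these data known, these shares are description and no test. In bulk RNA, fewer cells of a type and less RNA per cell cannot be told apart.

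**Figure D1:**
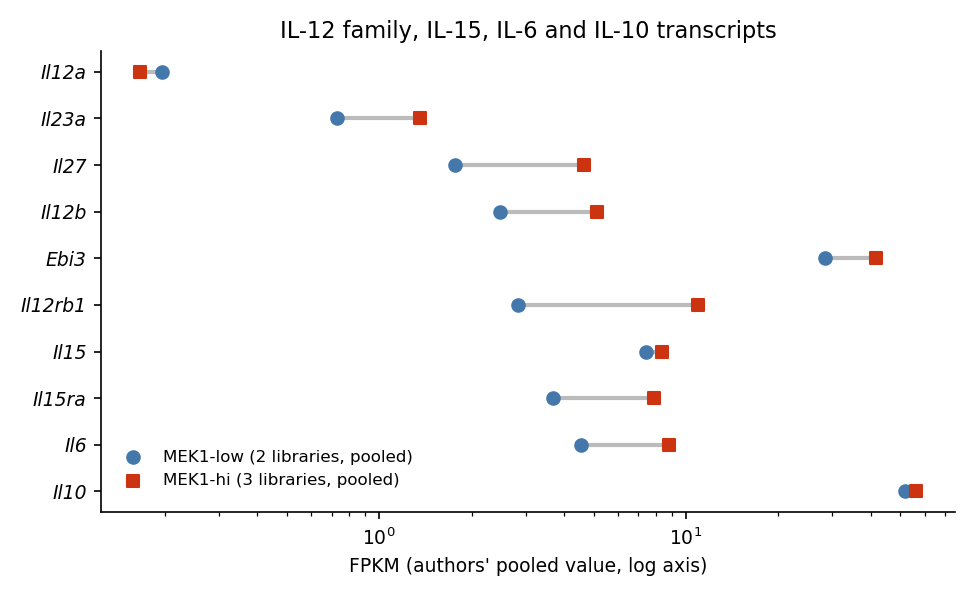
Pooled FPKM (log axis) of each member in MEK1-low (circles, 2 libraries) and MEK1-hi (squares, 3 libraries), with a line joining the groups. The longest line is that of Il12rb1 (2.84 to 11.0), Il10 and Ebi3 lie farthest right in both groups, and Il12a is the one gene with its square on the left.

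Levels spanned a wide range within the set. In MEK1-low, the order from the highest FPKM was Il10, Ebi3, Il15, Il6, Il15ra, Il12rb1, Il12b, Il27, Il23a and Il12a. In MEK1-hi it was Il10, Ebi3, Il12rb1, Il6, Il15, Il15ra, Il12b, Il27, Il23a and Il12a, so Il12rb1 moved from the sixth to the third place and the last 4 kept their places. Whether neighbours in these orders differ beyond their spread could not be tested without values per library. Il10 was the most abundant, with only 12.6% of tested rows above it in MEK1-low and 12.2% in MEK1-hi by the FPKM of the authors' deposited table. Il23a was among the least abundant genes tested, with 94.3% and 87.2% of tested rows above it there.

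**Figure D2:**
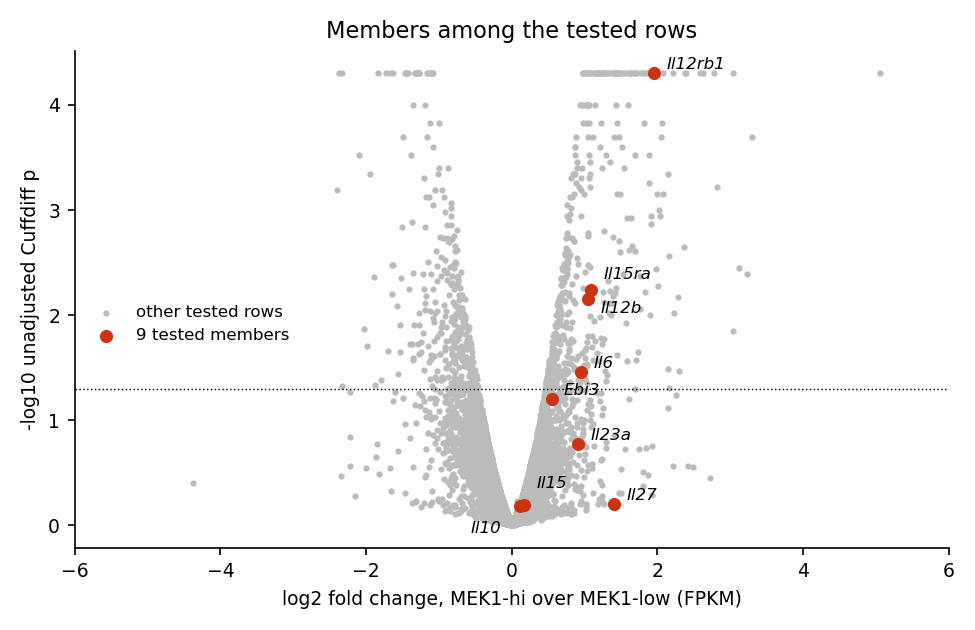
Log2 fold change (x axis, MEK1-hi over MEK1-low) against -log10 of the authors' unadjusted Cuffdiff p (y axis) for the tested rows with a finite fold change, with the 9 tested members as large labelled points and a dotted line at p = 0.05. Il12rb1 lies on the upper edge, set by the authors' smallest p of 5e-05, Il15ra, Il12b and Il6 lie between it and the line, and Il27 lies far right but near the bottom.

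Il12rb1 encodes the receptor chain shared by IL-12 and IL-23 (mm10 chromosome 8, 70808449 to 70821423). It went from 2.84 FPKM in the MEK1-low group to 11.0 in the MEK1-hi group by the authors' deposited table, a 3.86-fold difference (log2 1.95). The groups' pooled values are thus apart by 8.12 FPKM, and Cuffdiff gave a statistic of 3.86, an unadjusted p of 5e-05 and q = 0.00676. Only 0.138% of tested rows had a larger statistic. The p is the smallest in the table and is shared by 91 rows, so these cannot be ranked by it. The Benjamini-Yekutieli adjustment called 0 of the 12311 tested rows. Even rows with that smallest p could not pass it, so a loss under it says nothing about Il12rb1 in particular. With the authors' p values, the call was lost under the Benjamini-Yekutieli adjustment (adjusted p = 0.0676) and with p computed from the deposited statistic and a normal distribution (adjusted p = 0.0702).

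The rows closest to Il12rb1 in FPKM in both groups were Serpinb6b, C1s1 and Pglyrp1, by Euclidean distance between log2 FPKM values over the 2 groups. Serpinb6b, an intracellular protease inhibitor, went from 2.71 to 10.8 FPKM by the authors' deposited table, at a distance of 0.067. C1s1, a protease of the classical complement pathway, went from 2.81 to 13.1 there (distance 0.256). Pglyrp1, a peptidoglycan recognition protein, went from 2.33 to 10.3 by the authors' deposited table (distance 0.300). All 3 were called higher by Cuffdiff. With 2 pooled values per gene, this likeness holds only level and fold.

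The partner chains of the receptor were lower in abundance. Il12rb2, which joins Il12rb1 in the IL-12 receptor, had 1.01 FPKM in the MEK1-low group and 3.03 in the MEK1-hi group by the authors' deposited table (log2 fold change 1.59), with an unadjusted p of 0.0012 that did not pass over all rows (q = 0.0782). Il23r, the partner in the IL-23 receptor, was listed at 0 in MEK1-low and 0.0285 in MEK1-hi there, and was not tested. Il27ra, which with Il6st forms the IL-27 receptor, had 0.788 and 0.603 FPKM by the authors' deposited table (q = 0.9998). Il12rb2, Il23r and Il27ra are named here after their values were seen.

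Promoter sequences for 5 of the 10 genes (Il12a, Il12b, Ebi3, Il15ra and Il6) were in the RefSeq promoter table (build GRCm38.p6), as 7 windows from 250 bases before to 50 after a transcription start. They are shown because Il12b, Il6 and Il15ra passed an unadjusted p under 0.05 and Ebi3 is the most abundant subunit. Both strands were searched for GAAANNGAA (the core of an interferon response element), TTCNNNGAA (a STAT site) and GGNNNTTCC (an NF-kB site), which can overlap one another, and matches are in capitals. For Il12b (chr11:44399913-44400062), Il6 (chr5:30012964-30013113) and Ebi3 (chr17:55952473-55952622), the 150 bases before the start are given on the plus strand, which is the genes' strand. For Il15ra, 30 bases are given around the match before the first start (chr2:11705134-11705163) and around the match after the second (chr2:11705731-11705760), also on the plus strand.
Il12b: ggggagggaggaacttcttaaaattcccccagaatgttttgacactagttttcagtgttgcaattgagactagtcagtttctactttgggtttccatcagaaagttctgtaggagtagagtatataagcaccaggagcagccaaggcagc
Il6: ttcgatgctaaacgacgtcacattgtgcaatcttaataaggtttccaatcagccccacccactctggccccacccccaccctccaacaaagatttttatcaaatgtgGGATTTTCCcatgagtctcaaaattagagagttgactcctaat
Ebi3: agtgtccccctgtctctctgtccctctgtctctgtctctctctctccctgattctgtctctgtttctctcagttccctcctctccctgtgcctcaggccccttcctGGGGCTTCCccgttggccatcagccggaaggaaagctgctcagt
Il15ra, first start: tcaccccttcTTCCATTTCaaacacttggc
Il15ra, second start: aaagcaaaagcGAAAGCGAAtactccttag

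GAAANNGAA was found in 2 of the 7 windows, both of Il15ra, and in 8.56% of all 32851 windows in the table. GGNNNTTCC was found in 4 of the 7, at both starts of Il12a and in Il6 and Ebi3, against 18.5% of all windows. The Il6 match runs from -43 to -35, counted in bases from the start. TTCNNNGAA was found in 0 of the 7 and in 8.30% of all windows, and the Il12b window held none of the 3 motifs. A match is a string of letters and no measure of binding, and the lack of a match does not show that a binding site is absent.

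Among the IL-12 family subunits, Il12b was the one with an unadjusted p under 0.05. It encodes the chain shared by IL-12 and IL-23 (chromosome 11, 44400063 to 44414677). Il12b was at 2.48 FPKM in the MEK1-low group and 5.12 in the MEK1-hi group by the authors' deposited table, a 2.06-fold difference (log2 1.05), with a Cuffdiff statistic of 1.83, an unadjusted p of 0.00695 and q = 0.262. Il12a, which encodes the chain that completes IL-12 (chromosome 3, 68690644 to 68698550), had 0.195 and 0.166 FPKM there and was not tested. It lay below 99.9% of the tested rows in each group. Il23a, the chain that completes IL-23 (chromosome 10, 128296140 to 128298084), had 0.726 and 1.36 FPKM by the authors' deposited table (log2 fold change 0.91, unadjusted p = 0.167, q = 0.9998).

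The shared chain exceeded both of its partners in both groups, as transcript per length. The ratio of Il12b to Il12a was 12.7 in the MEK1-low group and 30.8 in the MEK1-hi group, computed from the authors' deposited table, and that of Il12b to Il23a was 3.42 and 3.76. These ratios have no test, and those to Il12a rest on a denominator below 0.2 FPKM. With a pseudocount of 0.1 FPKM, the MEK1-hi ratio of Il12b to Il12a was 19.6.

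Ebi3 was the most abundant subunit. It encodes the chain shared by IL-27 and IL-35 (chromosome 17, 55952623 to 55967951). Ebi3 was at 28.5 FPKM in the MEK1-low group and 41.6 in the MEK1-hi group by the authors' deposited table (1.46-fold, statistic 1.21, unadjusted p = 0.0631, q = 0.888), a difference that did not pass the test. In the GENCODE release M21 annotation, Ebi3 overlaps the antisense gene Gm16712 over 2252 bases. Gm16712 had 1.18 and 1.35 FPKM by the authors' deposited table. Yju2, which shares the locus of Ebi3 in the table, had 6.92 and 6.53 FPKM by the authors' deposited table (q = 0.9998). Both were below Ebi3 in each group, and their part in its value was not tested. Whether reads were counted by strand is not given in the sources used here, although the library kit marks strand.

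Il27, which encodes the other chain of IL-27, combined a large fold with a small statistic. It was at 1.76 FPKM in the MEK1-low group and 4.66 in the MEK1-hi group by the authors' deposited table, a 2.64-fold difference (log2 1.40) that was the second largest in the set, after that of Il12rb1. Yet its Cuffdiff statistic was 0.515, with an unadjusted p of 0.624 and q = 0.9998. Of 48 other tested rows within 0.5 of Il27 in log2 FPKM in both groups, 3 had a smaller absolute statistic. Their median statistic was 1.36, and 25 of the 48 had an unadjusted p under 0.05. For Il12b, by the same window, 129 of 144 rows had a smaller absolute statistic. The window limits the FPKM in each group and thereby limits the fold only loosely. Over all tested rows, the fold change centres near none. Rows of smaller fold than the member are therefore taken in, and a high place among them is no result about the member.

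Il27 shares its locus in the table (chromosome 7, 126571207 to 126595022) with Apobr, Cln3 and Mir7059, and the annotation has it overlap Apobr, on the opposite strand, by 103 bases. Apobr had 19.1 and 21.9 FPKM and Cln3 23.0 and 25.2 by the authors' deposited table, each several times the level of Il27 (q = 0.9998 for both). Their part in the low statistic was not tested.

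**Figure D3:**
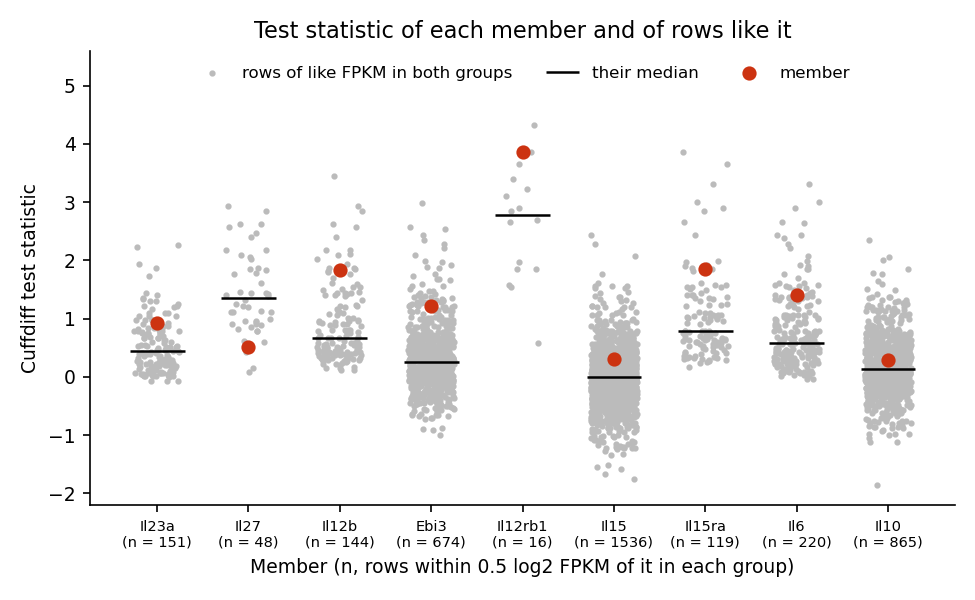
Cuffdiff test statistic (y axis) of each tested member (large points) and of the other rows within 0.5 log2 FPKM of it in each group (small points, n under each name), with the median of those rows as a bar. Il27, at 0.515, lies below the median of 1.36 for its rows, and the other 8 members lie above theirs. The window takes in rows of smaller fold than the member, so a place above the median is no result about it.

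The ratio of Ebi3 to Il27 was 16.2 in the MEK1-low group and 8.94 in the MEK1-hi group, and that of Ebi3 to Il12a was 146 and 251, all from the authors' deposited table. The first of these was 1.81-fold lower in MEK1-hi, but its denominator is Il27, whose difference did not pass the test. With a pseudocount of 0.1 FPKM the ratios of Ebi3 to Il12a were 96.8 and 157. In both groups Ebi3 transcript was thus many times that of either chain it pairs with.

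Neither member of the IL-15 pair was called. Il15ra, which encodes the receptor chain that presents IL-15 to neighbouring cells (chromosome 2, 11705293 to 11733985), was at 3.68 FPKM in the MEK1-low group and 7.86 in the MEK1-hi group by the authors' deposited table. That is a 2.13-fold difference (log2 1.09), with a Cuffdiff statistic of 1.85, an unadjusted p of 0.00575 and q = 0.231. Il15 itself (chromosome 8, 82331624 to 82402586) had 7.41 and 8.33 FPKM there, a 1.12-fold difference with an unadjusted p of 0.638 and q = 0.9998. The ratio of Il15ra to Il15 was 0.497 in the MEK1-low group and 0.944 in the MEK1-hi group, from the authors' deposited table. Whether the differences of Il15ra and Il15 differ from each other was not tested.

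The chains that receive presented IL-15 on lymphocytes are Il2rb and Il2rg. Il2rg, the common gamma chain and the most abundant gene on the list of receptor chains, had 212 and 299 FPKM by the authors' deposited table (log2 fold change 0.49, unadjusted p = 0.0462, q = 0.792). Il2rb, named after its values were seen, had 4.21 and 6.60 FPKM by the authors' deposited table (unadjusted p = 0.0556, q = 0.855). Neither was called.

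Neither Il6 nor Il10 was called. Il6 (chromosome 5, 30013114 to 30019975) was at 4.55 FPKM in the MEK1-low group and 8.79 in the MEK1-hi group by the authors' deposited table, a 1.93-fold difference (log2 0.95). Its Cuffdiff statistic was 1.40, its unadjusted p 0.0349 and q = 0.685. Il10 (chromosome 1, 131019845 to 131024970) had 51.8 and 56.2 FPKM there, a 1.08-fold difference with an unadjusted p of 0.661 and q = 0.9998. Scaling both groups to the same FPKM sum, which lowers every log2 fold change by 0.10, would leave Il10 at 0.02 and Il15 at 0.07.

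Their receptors were abundant, and none was called. Il10rb had 121 and 124 FPKM by the authors' deposited table (q = 0.9998). Il10ra, the ligand-binding chain, had 64.4 and 92.0 FPKM by the authors' deposited table (log2 fold change 0.51, unadjusted p = 0.034, q = 0.679). Il6ra had 32.0 and 30.7 FPKM and Il6st, the signalling chain of the IL-6 receptor, 21.5 and 17.7 by the authors' deposited table (q = 0.9998 for both). Il10ra, Il6ra and Il6st are named after their values were seen.

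Over the whole list of 9 receptor chains outside the set, 8 were tested and 0 were called in either direction by Cuffdiff. At an unadjusted p under 0.05, 3 were higher (Il12rb2, Il10ra and Il2rg) and 0 lower, beside 3.5% and 2.58% of all tested rows. The median log2 fold change of these chains was 0.26, beside -0.02 over all tested rows.

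Of 8 kinases and STATs through which these receptors signal, 0 were called by Cuffdiff in either direction (0 also at an unadjusted p under 0.05), and the median was 0.29. Stat3, which transduces IL-6 and IL-10, had 96.9 and 105 FPKM and Jak1, a kinase of several of these receptors, 52.8 and 52.6 by the authors' deposited table (q = 0.9998 for both). Stat4, which transduces IL-12 and is named after its values were seen, had 7.39 and 9.35 FPKM by the authors' deposited table (q = 0.9998). The row of Jak3 also carries the symbol Insl3, so its value is not that of Jak3 alone.

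Transcription factors known to act on these cytokine genes held the most called genes of any list, with 3 of 12 higher and 0 lower. Of all tested rows, 0.999% were called higher and 0.325% lower. This list was also the longest, and it was chosen with earlier results of these data known. Irf1, an interferon-induced activator of Il12a, Il15 and Il27 among other genes, went from 146 to 305 FPKM by the authors' deposited table (log2 fold change 1.06, q = 0.0163). Irf8, which acts with Irf1 on Il12b, went from 61.6 to 114 there (0.89, q = 0.0344). Cebpb, an activator of Il6 and other inflammatory genes, went from 63.4 to 125 by the authors' deposited table (0.98, q = 0.00676). The NF-kB subunits Rel, Rela and Nfkb1 had log2 fold changes of 0.05, 0.15 and -0.03 and were not called, and they are named after their values were seen. The list's median was 0.41.

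Targets of STAT3 signalling in macrophages were not called, with 0 of 10 in either direction by Cuffdiff. At an unadjusted p under 0.05, 3.5% of all tested rows were higher, as were 2 of these 10 targets. The most abundant, Zfp36 and Cd14, had 1107 and 1205 FPKM and 1106 and 1003 FPKM by the authors' deposited table (q = 0.9998 for both). The 2 genes under that threshold, named after their values were seen, were Socs3, the feedback inhibitor of IL-6 signalling, with 177 and 259 FPKM, and Bcl3, with 36.0 and 52.9, by the authors' deposited table (q = 0.665 and 0.505). The median of the list was 0.19.

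Genes that IL-12 and IL-15 induce in lymphocytes had 1 of 9 tested members called higher and 0 lower, with 4 higher at an unadjusted p under 0.05. Over all tested rows these shares were 0.999%, 0.325% and 3.5%. The called gene was Tbx21, which encodes the transcription factor T-bet, at 0.825 and 3.42 FPKM by the authors' deposited table (log2 fold change 2.05, q = 0.0202). The other 3 under that threshold, named after their values were seen, were Ifng (0.347 and 1.15 FPKM, q = 0.548), Gzmb (1.96 and 4.66, q = 0.239) and Prf1 (0.151 and 0.732, q = 0.254) by the authors' deposited table. All 3 are products of NK and T cells, and their levels were low. The list's median was 0.38.

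The remaining relatives were mostly low and not called. Of 11 other genes of the IL-6 and IL-10 families, 7 were tested and 0 called by Cuffdiff (0 also at an unadjusted p under 0.05), with a median of 0.09. Osm, which encodes oncostatin M, an IL-6 relative made by macrophages, had 109 and 82.1 FPKM by the authors' deposited table (q = 0.9998), above every member in both groups. The row of Clcf1 had 59.4 and 74.3 there, and it also carries the symbols Gm45928 and Pold4, so its value is not that of Clcf1 alone. Of 6 other cytokines of the common gamma chain family and its relatives, 2 were tested and Il4 was called lower, with 0.603 FPKM in MEK1-low and a listed 0 in MEK1-hi by the authors' deposited table (q = 0.00676). No fold is given for it. All 6 were below 1 FPKM in both groups, so Il15 was the abundant cytokine of that family.

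Over these 7 lists together, 56 of 66 genes were tested, and 4 were called higher and 1 lower by Cuffdiff. Of all tested rows, 0.999% were called higher and 0.325% lower. An unadjusted p under 0.05 was found for 12 higher and 1 lower, beside 3.5% and 2.58% of all tested rows. The lists were chosen with earlier results of these data known, so these counts are description only.

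**Figure D4:**
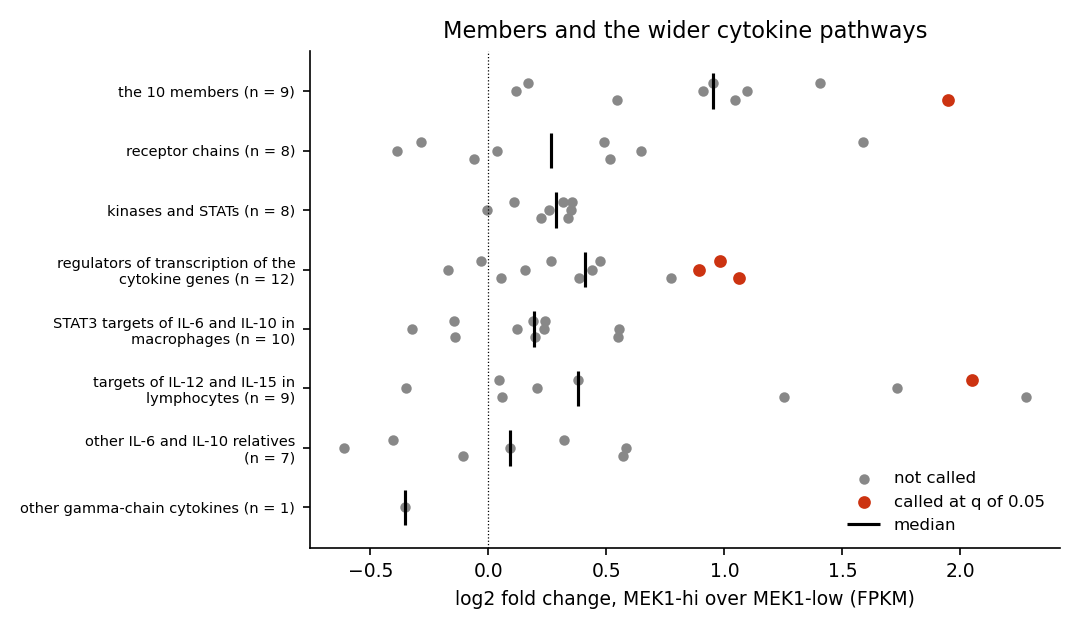
Log2 fold change (x axis, MEK1-hi over MEK1-low) of the tested members and of the tested genes of each pathway list that have a finite value (n beside each name), with called genes as larger coloured points and the median as a bar. The medians run from -0.35 (1 gene) to 0.95 (the 9 tested members), and the called points are Il12rb1, Irf8, Cebpb, Irf1 and Tbx21.

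The libraries carried most of the defining macrophage markers at high levels in both groups. Of 10 markers none was called by Cuffdiff (0 also at an unadjusted p under 0.05), and they summed to 13774 FPKM in the MEK1-low group and 16080 in the MEK1-hi group. Lyz2 had 4999 and 6372 FPKM and C1qa 3261 and 3758 by the authors' deposited table, and these 2 genes made up most of the sum. Mertk, named after its values were seen, was the lowest of the list, with 25.2 and 23.1 FPKM there.

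Markers of other cells that make or receive these cytokines were also present, and some moved with the groups. Conventional dendritic cells are a main source of IL-12. Of their 8 markers, 2 were called higher and 0 lower, beside 0.999% and 0.325% of all tested rows. Unadjusted p values under 0.05 were found for 4 higher and 1 lower, beside 3.5% and 2.58% of all tested rows. None of the 8 was at 0, and their summed FPKM was 23.9 and 33.5. The called ones were Xcr1 (1.53 and 4.17 FPKM, q = 0.0163) and Clec9a (0.931 and 5.58, q = 0.00676) by the authors' deposited table. Cd209a, the most abundant of the list in the MEK1-low group, had 9.68 and 4.64 FPKM there and was not called (q = 0.274), and Cd24a had 3.36 and 4.96 FPKM (q = 0.9998). Their part in the values of Il12b, Il15ra and Il12rb1 was not tested.

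Markers of activated migratory dendritic cells, which carry Ebi3, Il12b, Il15 and Il15ra, were not called. Of 10, 0 were called by Cuffdiff (0 also at an unadjusted p under 0.05), 5 lay above 0 and 5 below, and the median was -0.06. Their summed FPKM of 658 and 778 was mostly Cd83 (487 and 615 FPKM by the authors' deposited table, q = 0.9998), a gene that macrophages also express. Relb, the second most abundant of the list, had 47.6 and 55.9 FPKM there (q = 0.9998). Fscn1, named after its values were seen, had 51.8 and 37.8 FPKM (q = 0.942).

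NK and T cells carry Il12rb1 and Il12rb2. Of 9 NK cell markers, 5 were tested, all 5 lay above 0, 1 (Klrk1, 5.27 and 18.1 FPKM by the authors' deposited table, q = 0.00676) was called higher, and the summed FPKM was 15.1 and 37.6. An unadjusted p under 0.05 was found for 4 higher (Klrk1, Klrd1, Gzmb and Prf1) and 0 lower. Of all tested rows, 0.999% were called higher, and 3.5% were higher and 2.58% lower at that unadjusted threshold. Gzma, Gzmb, Prf1 and Eomes are also on the list of IL-12 and IL-15 targets above, so these lists are not separate observations. The defining markers Ncr1 and Klrb1c are named after their values were seen. Ncr1 (0.074 and 0.089 FPKM) and Klrb1c (0.029 and 0.090) were near 0 in both groups and not tested by the authors' deposited table. Klrd1 had 6.76 and 12.6 FPKM there (q = 0.568). Of 8 T cell markers found, 0 were called by Cuffdiff, 6 lay above 0 and 2 below, and the median log2 fold change was 0.62. An unadjusted p under 0.05 was found for 1 higher and 1 lower (Cd4). The higher one was Cd8a, named after its values were seen (1.15 and 2.88 FPKM, q = 0.202). None was at 0, and the summed FPKM was 38.3 and 36.0, mostly that of Cd4 (27.8 and 19.3 by the authors' deposited table, q = 0.769). The sum thus mainly follows Cd4, which was lower, while most of the list was higher. Cd8b1 had 3.32 and 4.37 FPKM there (q = 0.9998). Il12rb1, at 11.0 FPKM in MEK1-hi, was above each NK and T cell marker named here except Klrk1, Klrd1 and Cd4 in that group. The part of these cells in its value was not tested.

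Fibroblasts and sarcoma cells can make IL-6. All 8 of their markers lay below 0, and they summed to 1216 FPKM in the MEK1-low group and 740 in the MEK1-hi group. Of the 8, 1 was called lower (Thy1, 51.8 and 25.8 FPKM by the authors' deposited table, q = 0.0163). At an unadjusted p under 0.05, 5 were lower. Of all tested rows, 0.325% were called lower and 2.58% were lower at that unadjusted threshold. Col3a1 had 454 and 290 FPKM and Col1a1 421 and 281 by the authors' deposited table (q = 0.9998 for both). Their part in the value of Il6 was not tested.

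B and plasma cells, mast cells and neutrophils were also looked for. Of 7 B and plasma cell markers, 6 were below 1 FPKM in both groups and 0 were called by Cuffdiff (1 higher at an unadjusted p under 0.05), while Cd79b had 8.05 and 8.91 FPKM by the authors' deposited table. Of 6 mast cell markers, 5 were below 1 FPKM in both groups, Ms4a2 and Fcer1a were listed at 0 in at least 1 group, and Kit was called higher (4.13 and 10.9 FPKM by the authors' deposited table, q = 0.00676). Of 6 neutrophil markers, 0 were called by Cuffdiff (an unadjusted p under 0.05 for 1 higher and 1 lower), with a summed FPKM of 55.9 and 63.3. Csf3r had 26.2 and 36.6 FPKM and S100a8 13.3 and 14.2 by the authors' deposited table.

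**Figure D5:**
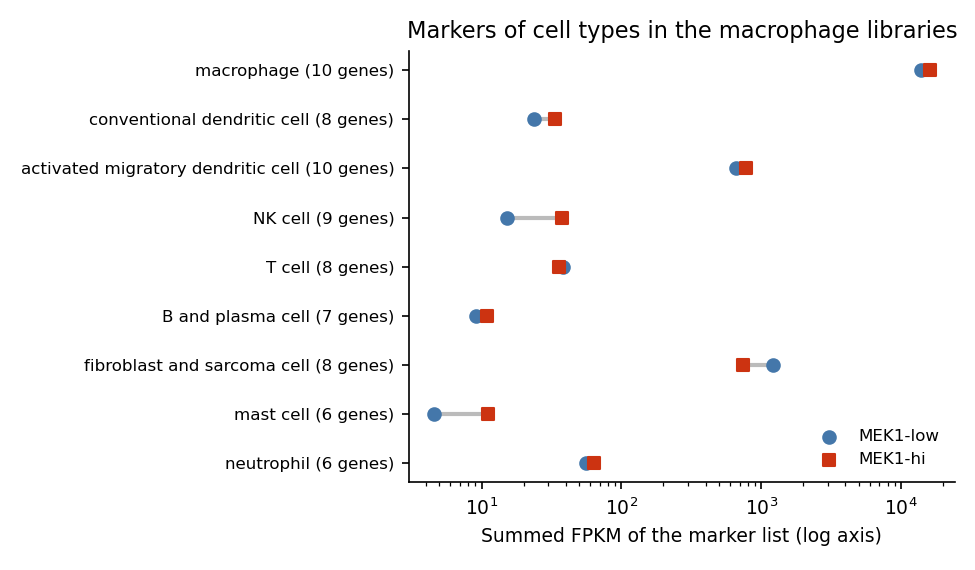
Summed FPKM (log axis) of each fixed list of cell type markers in MEK1-low (circles) and MEK1-hi (squares). The macrophage list is the highest (13774 and 16080), the fibroblast and sarcoma list is lower in MEK1-hi (1216 and 740), and the NK cell list is higher there (15.1 and 37.6).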

How the data were processed

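Macrophage RNA of 3 MEK1-hi and 2 MEK1-low libraries was sequenced as stranded poly(A) libraries with paired reads, per the labels' protocols. The submitters' processing notes name FastQC 0.73, TopHat, Cufflinks, Cuffdiff and mm10 without giving the step of each. Which annotation was used, and whether strand was counted, is not given in the sources used here. One Cuffdiff table was deposited, with a pooled FPKM per group. Its statistic is a score the authors deposited, and the p-value and q-value are also as deposited.

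Rows were found by exact symbol, also within joined symbols. Log2 fold changes were computed from the FPKM values without a pseudocount. The q values equal a Benjamini-Hochberg adjustment over the 12311 tested rows to within 5e-07. No count model and no test over libraries could be run. The adjustments and the motif search were tested on simulated data.

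The members and lists were chosen with earlier results of these data known. Named genes were the members, each list's called genes or else its 2 most abundant, in marker lists both, and the 3 rows nearest to the member with the largest statistic. Exceptions are marked. One gene of the pathway lists is not reported here and is left out of their counts. Alternatives changed the threshold, adjustment, source of p, FPKM filter, pseudocount, scaling and promoter window. Table loci are written 1-based on mm10. Gene overlaps are from GENCODE release M21. Scripts ran in Python 3.11.15 with pandas 2.3.3, numpy 2.4.6, matplotlib 3.10.9 and scipy 1.17.1.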

Additional observations from a re-analysis of the deposited data

How the results depend on the processing

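The count of 1 member called held at a q of 0.10, with an absolute log2 fold change of at least 1 added, and with adjustment over rows of at least 1 FPKM in one group. It was 4 at an unadjusted p under 0.05 and 0 both under the Benjamini-Yekutieli adjustment and with p from the statistic and a normal distribution. Over all rows, those last 2 rules called 0 and 15 rows, against 163 as reported. Even rows with the smallest p in the table could not pass the Benjamini-Yekutieli rule, so its count of 0 is no result about the members. No member changed sign under a pseudocount of 0.1 or 1 FPKM or under scaling to equal FPKM sums or medians, and the median over the 10 members stayed between 0.67 and 0.94 (0.93 as reported). The pathway lists had 5 genes called, 4 with at least 1 FPKM in one group and 13 at an unadjusted p under 0.05. A pseudocount of 0.1 FPKM lowered the ratio of Il12b to Il12a in MEK1-hi to 19.6 and those of Ebi3 to Il12a to 96.8 in MEK1-low and 157 in MEK1-hi. Without the 50 bases after the start, GAAANNGAA was found in 1 member window. Leaving out each library could not be run, because the table pools them. No paired analysis was possible because the table has 1 value per group.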

Other observations

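Some levels across the set belong to no pairing of chains and were set side by side after their values were seen, as FPKM ratios from the authors' deposited table with no test. The ratio of Il10, the restraining cytokine, to Il12b was 20.9 in the MEK1-low group and 11.0 in the MEK1-hi group. The ratio of Il10 to Il6 was 11.4 and 6.40. In each case the FPKM of Il10 differed by 1.08-fold between the groups, and the denominators by 2.06-fold and 1.93-fold, neither of which was called by Cuffdiff. The ratio of Ebi3 to Il12b was 11.5 and 8.13.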
